A study of Mus musculus with 20 samples.

Results

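The 8 genes described here are switched on by glucocorticoid hormones, which rise in a fast, and were followed in fasted mouse liver across 3 histone marks: Mt1 and Mt2, Fkbp5, Tat, Sgk1, Cdkn1a, Klf9 and Zbtb16. A consensus interval of a mark was counted for a gene when its middle lay inside the gene body or within 10000 bases of it (mm10, gene bodies from RefSeq). This gave 94 of 65776 H3K27ac intervals, 136 of 103014 H3K4me1 intervals and 167 of 46568 H3K9ac intervals, for 8 of 21900 protein-coding genes. The windows of the neighbours Mt1 and Mt2 share 5 H3K27ac intervals, which were counted once. The value of an interval in a library is the fold over input of its highest overlapping peak, as deposited by the authors, and an interval with no peak in a library has no value there.

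The livers came from male C57BL/6 mice aged 9 weeks and fasted for 24 hours, and they fall into 4 genotypes. WT livers carry both genes, Cpt2 KO livers lack Cpt2 in the liver (Cpt2 L-/-), Ppara KO livers lack Ppara (Ppara -/-), and DKO livers lack Cpt2 in the liver and Ppara in the whole body (Cpt2 L-/- ; Ppara -/-). Cpt2 encodes an enzyme that lets mitochondria burn long-chain fatty acids, and Ppara a nuclear receptor that senses fatty acids. H3K27ac, a mark of active promoters and enhancers, and H3K4me1, a mark of enhancers, were each profiled in 2 livers per genotype, and H3K9ac, another acetylation of active chromatin, in 1 WT and 1 Cpt2 KO liver. All mice were fasted and no fed sample was analysed here, and the driver of the liver deletion is not given in the sources used here. The labels number the livers and do not say which animal each came from, so the p-values measure only the spread between these libraries.

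Glucocorticoids rise in the blood during a fast and act through the glucocorticoid receptor, Nr3c1, which waits in the cytoplasm with Hsp90 chaperones, enters the nucleus when hormone binds, and attaches to paired half-sites in DNA. In the liver it drives the breakdown of amino acids and the making of glucose, together with genes that damp the hormone signal. Metallothioneins are induced by this hormone and, through the zinc sensor Mtf1, by metals.

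Depth in reads is not given by the files. The peak lists held from 44454 to 48929 H3K27ac peaks and from 61189 to 72151 H3K4me1 peaks per library. Replicate H3K27ac lists shared bases with a Jaccard index of 0.713 to 0.726 in each genotype, and H3K4me1 lists with 0.390 in Cpt2 KO to 0.654 in WT. The smallest H3K27ac peak was 217 to 223 bases wide in the Cpt2-null libraries and 198 to 210 in the Cpt2-intact ones, so peak width and loss of Cpt2 cannot be told apart. For H3K4me1 it was 199 in both WT libraries and 210 and 221 in DKO, so width and genotype cannot be told apart there either. Replicates 1 and 2 read 211 and 196 in Cpt2 KO, and 200 and 216 in Ppara KO. As a check of the labels, 1 of the 5 H3K27ac intervals at Cpt2 was called in all 4 Cpt2-intact libraries and in none of the 4 Cpt2-null ones, and 1 of the 26 at Ppara was called in all 4 Ppara-intact libraries and in none of the Ppara-null ones, while 1 showed the reverse. Over marker genes of liver cells, the summed fold of the strongest H3K27ac interval of 4 Kupffer cell and leukocyte genes was 27.1 to 31.6 in WT, 40.3 to 51.6 in Cpt2 KO, 34.5 to 38.5 in Ppara KO and 56.8 to 57.3 in DKO. Among these, Ptprc and Adgre1 had no peak in either WT library. The sums of markers add uncentred folds, and a library without a peak enters them as 0. The sum over 3 endothelial genes was 40.6 to 47.1, 65.7 to 73.4, 45.8 to 54.3 and 66.4 to 78.3 in the same order, and that over 5 hepatocyte genes was 84.8 to 96.2, 63.8 to 67.9, 74.2 to 93.0 and 87.8 to 107.8. Of 3 stellate markers Col1a1 had no interval, and of 3 cholangiocyte markers Krt19 and Epcam had none. The stellate sum was 3.8 to 5 in WT, 13.5 to 15.5 in Cpt2 KO, 0 to 6.07 in Ppara KO and 4.8 to 10.9 in DKO. The 1 cholangiocyte marker with an interval, Sox9, read 12.5 and 19.7 for WT, no peak in either Cpt2 KO library, 5.81 and 7.25 for Ppara KO and 6.5 and 9.57 for DKO. The Kupffer cell and endothelial sums were thus highest where Cpt2 was lost, and Sox9 was highest in WT. By limma, Pecam1 of endothelium was higher in Cpt2-null livers (adjusted p = 0.0251), Clec4f of Kupffer cells was higher in DKO than in WT (0.0331), and the hepatocyte genes Serpina1c (0.0195) and Trf (0.0161) were lower in Cpt2-null livers. With a library left out in turn, the Pecam1 call was lost in 5 of the 8 fits, Serpina1c in 3, Clec4f in 2 and Trf in 1. Each was also lost with smallest peak width as a covariate, and Trf without centring of the libraries. The other tested markers did not pass in Cpt2-null livers and went both ways. Their log2 differences were 0.36 at Stab2, -0.11 at Kdr, 0.56 at Clec4f, -0.16 at Cd68, -0.19 at Alb, -0.17 at Apoa1 and 0.03 at Ttr. The part of other cells in the results below was not tested. In whole liver, more cells with a mark and more of the mark per cell cannot be told apart.

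H3K27ac near these genes was mostly higher in DKO than in WT livers, with the 3 metallothionein intervals, Cdkn1a, 2 sites inside Fkbp5 and 1 inside Zbtb16 passing the test, and the start site of Fkbp5 lower. Of the 94 intervals, 30 were called in all 8 libraries and could be tested, which leaves out every interval that is absent in some library. In DKO against WT, 8 of the 30 (26.7%) passed, 7 higher and 1 lower, where 20.2% of all 18281 tested intervals did, 8.62% higher and 11.5% lower (limma, Benjamini-Hochberg adjusted p under 0.05 over all of them). The median log2 difference of the 30 was 0.35, against -0.04 over all tested intervals, and 20 of the 30 were positive (66.7%, where 47.8% of all were). Of the 30, 10 lay at Fkbp5 and 8 at Zbtb16, and intervals of the same gene are not independent. Without centring of the libraries 11 passed, all higher, and with quantile normalization 8, all higher. The shares of all intervals that passed in these 2 fits are not given here, so these counts are no result about the members. Without centring, the median of all intervals itself moved to 0.26 here, 0.25 in Cpt2-null against Cpt2-intact, 0.19 in Cpt2 KO against WT and 0.12 for the interaction. The folds printed for single livers below are not centred, while the log2 differences are. The order and overlap of genotypes in these folds therefore hold this shift, which raises the Cpt2-null livers.

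The single deletions gave fewer calls near these genes. In Cpt2 KO against WT, 2 intervals were higher and 1 lower (10.0% of the 30, where 13.5% of all passed, 5.82% higher and 7.69% lower). Without centring 4 were higher and 1 lower (16.7%, where 13.9% of all then passed). In Ppara KO against WT, 1 was lower (3.33%, where 6.42% of all passed, 2.83% higher and 3.59% lower). With quantile normalization the single call was a different, higher interval, and without centring 1 was higher and 1 lower (6.67%, where 4.54% of all then passed). With both Ppara-null genotypes set against both Ppara-intact ones, 1 interval was higher (3.33%, where 7.34% of all passed, 3.19% higher and 4.15% lower), and with both Cpt2-null genotypes against both Cpt2-intact ones, 2 were higher (6.67%, where 12.3% of all passed, 4.9% higher and 7.38% lower). Without centring 10 were higher in the latter and none lower (33.3%, where 21.5% of all then passed). The interaction of the 2 deletions passed at 0 of the 30 (0.00547% of all), with 5 of the 30 at an unadjusted p under 0.05 (16.7%, where 15.2% of all were), and limma was the one tool run. These comparisons share libraries, so their counts are not independent.

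The counts rest on few livers. In each fit named next with fewer member calls, the share of all intervals that passed fell too. These losses are thus not particular to the members. In the fits without WT replicate 1 that gave more member calls, the share of all intervals rose too. In Ppara-null against Ppara-intact without DKO replicate 1, member calls rose while the share of all fell. For DKO against WT, 1 interval passed without WT replicate 2, and 3 passed without DKO replicate 1 or without DKO replicate 2. For Cpt2 KO against WT, none passed without WT replicate 2 or without Cpt2 KO replicate 1, 1 passed without Cpt2 KO replicate 2, and 5 passed without WT replicate 1. For Ppara KO against WT, none passed without WT replicate 2 or either Ppara KO liver, and 3 passed without WT replicate 1. For Ppara-null against Ppara-intact, none passed without Cpt2 KO replicate 2 or either Ppara KO liver, 2 without DKO replicate 1 and 3 without WT replicate 1. For Cpt2-null against Cpt2-intact, 4 passed without WT replicate 1, and 1 without WT replicate 2, Cpt2 KO replicate 1, either Ppara KO liver or DKO replicate 2. With the smallest peak width of each library as a covariate, no member interval passed in any comparison, including those described below. In that fit 0 of all 18281 H3K27ac intervals passed in Cpt2-null against Cpt2-intact and in Cpt2 KO and DKO against WT. In Ppara KO against WT 0.093% of all passed, and in Ppara-null against Ppara-intact 3.9%. The loss was thus not particular to these genes.

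**Figure D1:**
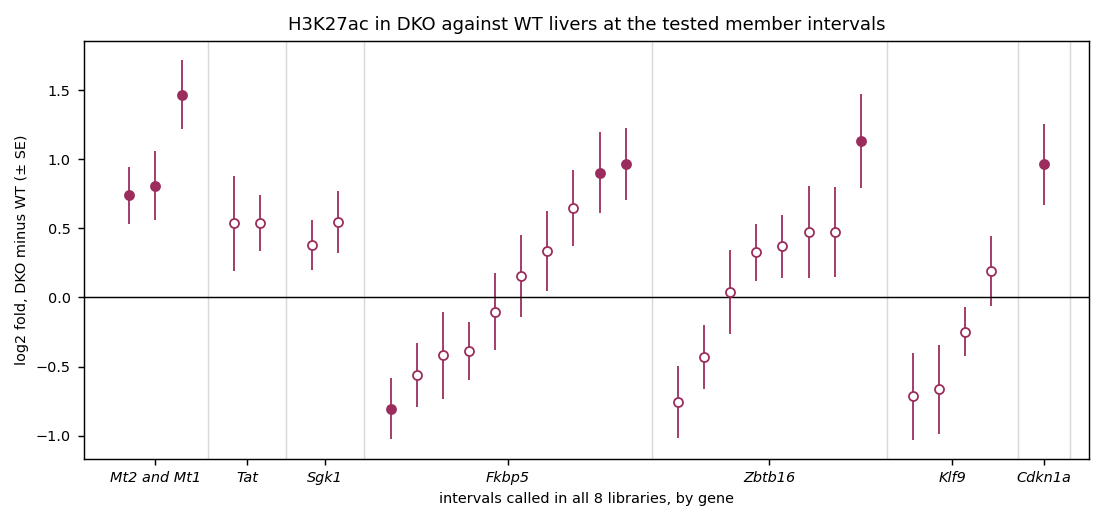
Log2 difference of H3K27ac fold, DKO minus WT, with its standard error, for the 30 intervals called in all 8 libraries, grouped by gene; filled points pass the adjusted p of 0.05 and open points do not. The 3 metallothionein intervals and the Cdkn1a interval lie above 0, while Fkbp5, Zbtb16 and Klf9 have intervals on both sides of 0.

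The metallothionein locus carried more H3K27ac in DKO livers than in WT livers at each of its 3 tested intervals. Mt1 and Mt2 encode small cysteine-rich proteins that bind zinc and copper. Mt2 lies on chromosome 8 at 94172618 to 94173567 and Mt1 at 94178883 to 94180327. The 250 bases before the Mt2 start site (chr8:94172368-94172617, plus strand, RefSeq GRCm38.p6) are shown because they lie inside the interval with the highest fold of the pair and hold 3 matches to the core of the metal response element, the site of Mtf1, searched on both strands as TGCACNC or TGCGCNC. Capitals mark the matches.

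Mt2 promoter: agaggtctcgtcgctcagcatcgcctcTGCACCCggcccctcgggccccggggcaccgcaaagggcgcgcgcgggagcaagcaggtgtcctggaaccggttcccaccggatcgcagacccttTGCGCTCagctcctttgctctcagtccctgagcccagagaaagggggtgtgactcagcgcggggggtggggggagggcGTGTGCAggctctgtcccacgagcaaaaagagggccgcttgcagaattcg

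Either form of this core is common: 21.4% of 32817 promoter windows of the same length held at least 1 match. The window held no match to the glucocorticoid half-site AGAACA, which 16.1% of windows held. A match is a description of letters and not a bound site.

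At the Mt2 interval (94170570 to 94175777), which holds the whole gene and its start site, H3K27ac fold was 16.6 and 12.8 for WT, 20.5 and 14.0 for Cpt2 KO, 16.6 and 13.9 for Ppara KO, and 27.1 and 36.2 for DKO. Both DKO livers stood above the other 6, which overlapped each other. The DKO livers differed from WT by 0.81 ± 0.25 on the log2 scale (SE, limma adjusted p = 0.0358). That call was lost without WT replicate 2 (log2 difference 0.52, adjusted p = 0.215) and without either DKO liver.

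At the Mt1 interval (94178032 to 94181206), fold was 10.1 and 11.7 for WT, 19.3 and 15.7 for Cpt2 KO, 12.9 and 14.5 for Ppara KO, and 21.1 and 23.6 for DKO. No 2 genotypes overlapped in uncentred fold, and their order was WT, Ppara KO, Cpt2 KO, DKO. The lowest Cpt2 KO liver (15.7) lay close to the highest Ppara KO liver (14.5). DKO exceeded WT by 0.74 ± 0.20 (SE, limma adjusted p = 0.0237), a call lost without WT replicate 2 or either DKO liver (adjusted p up to 0.105). The Cpt2-null difference of 0.42 missed the threshold (limma adjusted p = 0.0702).

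The largest difference of the locus was beyond the end of Mt1, in an interval (94181507 to 94183923) with its middle 2388 bases past the gene body. Its fold was 7.70 and 6.10 for WT, 16.7 and 19.2 for Cpt2 KO, 10.4 and 11.3 for Ppara KO, and 19.9 and 27.2 for DKO. The 4 genotypes kept the order seen at Mt1, again with no overlap. Cpt2-null livers exceeded Cpt2-intact ones by 0.98 ± 0.18 (SE, limma adjusted p = 0.00756), and DKO exceeded WT by 1.47 ± 0.25 (adjusted p = 0.0029). Both calls held with each of the 8 libraries left out in turn (adjusted p up to 0.0287). Cpt2 KO exceeded WT by 1.16 ± 0.25 (adjusted p = 0.0132), a call lost without WT replicate 2 or either Cpt2 KO liver (adjusted p up to 0.0857).

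Further out, some intervals lacked a peak in whole genotypes. An interval (94186273 to 94187276) 6447 bases past Mt1 had peaks only where Cpt2 was lost, with folds of 6.29 and 5.29 for Cpt2 KO and of 8.86 and 14.7 for DKO, and no peak in the other 4 libraries. On the other side, an interval (94164931 to 94165906) with its middle 7199 bases before the Mt2 gene body had folds of 4.89 and 4.20 for WT, no peak in either Cpt2 KO liver, 10.0 and 6.29 for Ppara KO, and 12.8 and 16.6 for DKO. Both intervals lack values in some libraries and were not tested. At this locus the sums of the Kupffer cell and endothelial markers given above were also higher in the Cpt2-null genotypes, and their part was not tested.

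**Figure D2:**
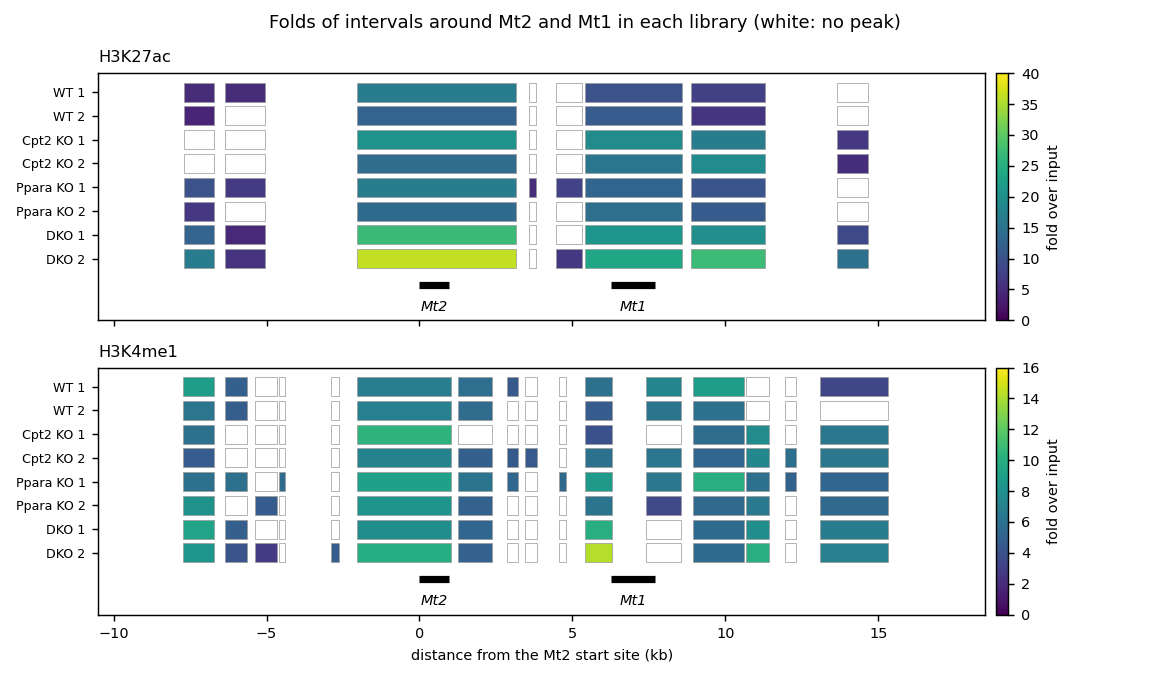
Fold over input of each interval (boxes, coloured by fold; white where the library has no peak) in each of the 8 H3K27ac and 8 H3K4me1 libraries, by distance from the Mt2 start site in kb, with the gene bodies as black bars; numbers after the genotype are replicates. The DKO rows are brightest at the Mt2 and Mt1 boxes of H3K27ac, and the box farthest right is filled in the 4 Cpt2-null libraries.

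Fkbp5 showed less H3K27ac at its start site in every knockout genotype than in WT, and more at 2 sites inside the gene in DKO. Fkbp5 encodes a co-chaperone of Hsp90 that lowers the hormone affinity of the receptor, and the gene is a classical target of the same receptor. Its body spans chromosome 17 from 28398753 to 28486149, read from the upper end, and its window held 22 H3K27ac intervals, 10 of them called in all 8 libraries. Of the 22, 18 overlapped an H3K4me1 interval and 17 an H3K9ac interval.

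At the start site (28484630 to 28486662), fold was 26.0 and 29.6 for WT, 14.7 and 14.9 for Cpt2 KO, 11.8 and 17.3 for Ppara KO, and 15.9 and 24.0 for DKO. Both WT livers stood above all 6 knockout livers, and the 3 knockout genotypes overlapped in part. The log2 difference from WT was -1.13 ± 0.22 in Cpt2 KO (SE, limma adjusted p = 0.00835), -0.95 ± 0.22 in Ppara KO (adjusted p = 0.0271) and -0.81 ± 0.22 in DKO (adjusted p = 0.0223). The Cpt2 KO call was lost without WT replicate 2 or Cpt2 KO replicate 1 (adjusted p up to 0.0805). The Ppara KO call was lost without any 1 of the 4 livers compared, and the DKO call without either WT liver or DKO replicate 1 (adjusted p up to 0.161 for both). Quantile normalization also ended the Ppara KO and DKO calls, and the DKO call was lost without centring as well. The interaction, which would show that the effect of Cpt2 depends on Ppara, was 1.27 and did not pass (limma adjusted p = 0.12).

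At 2 sites inside the gene the difference went the other way. An interval with its middle 22012 bases into the gene (28463050 to 28465224) had folds of 6.43 and 5.43 for WT, 17.8 and 10.5 for Cpt2 KO, 9.14 and 7.25 for Ppara KO, and 13.1 and 14.0 for DKO. In uncentred fold the 4 Cpt2-null livers all lay above the 4 Cpt2-intact ones, with the closest pair at 10.5 and 9.14. The log2 differences were 0.71 ± 0.21 for Cpt2-null against Cpt2-intact (SE, limma adjusted p = 0.0419), 0.98 ± 0.29 for Cpt2 KO against WT (adjusted p = 0.0421) and 0.90 ± 0.29 for DKO against WT (adjusted p = 0.0451). The first was lost without WT replicate 2, Cpt2 KO replicate 1 or any of the 4 Ppara-null livers (adjusted p up to 0.176). Cpt2 KO against WT was lost without WT replicate 2 or any of the 4 Cpt2-null livers (up to 0.332), and DKO against WT without WT replicate 2 or either DKO liver (up to 0.215). When libraries without a peak were filled in and more intervals entered the fit, the Cpt2 KO and DKO calls were also lost.

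At 57563 bases into the gene (28426730 to 28430442), fold was 6.17 and 5.50 for WT, 10.8 and 8.33 for Cpt2 KO, 6.83 and 8.22 for Ppara KO, and 13.5 and 14.4 for DKO. The DKO livers were highest and the WT livers lowest, with no overlap between DKO and any other genotype. DKO exceeded WT by 0.97 ± 0.26 (SE, limma adjusted p = 0.0201), a call lost without WT replicate 2 or either DKO liver (adjusted p up to 0.104).

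The strongest Fkbp5 interval over all libraries (28444252 to 28449129) had folds of 21.9 and 19.1 for WT, 35.1 and 28.4 for Cpt2 KO, 15.4 and 19.5 for Ppara KO, and 20.4 and 18.1 for DKO. Cpt2 KO stood above the other 3 genotypes, which overlapped, and DKO differed from WT by -0.39 ± 0.21 (SE, limma adjusted p = 0.206). A short interval (28467812 to 28468432) was called only where Cpt2 was lost, at 5.83 and 3.86 for Cpt2 KO and 6.00 and 3.75 for DKO. With the metallothionein interval above, that made 2 of 94 member intervals called only where Cpt2 was lost (2.13%, against 1.95% of all H3K27ac intervals).

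**Figure D3:**
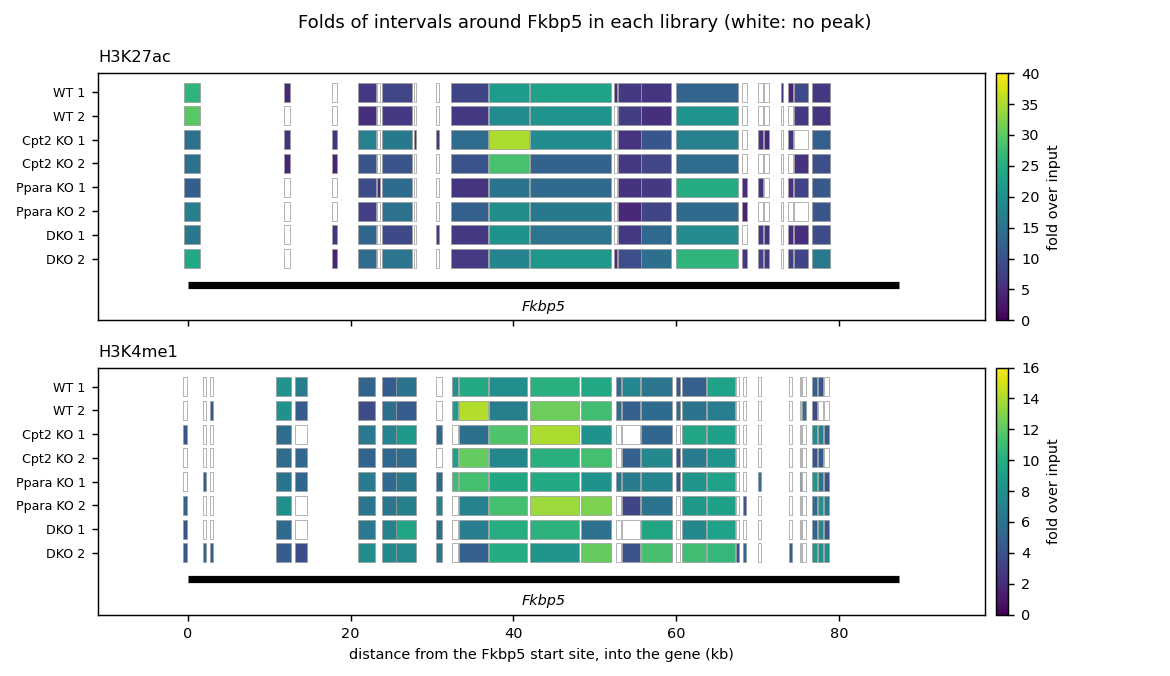
Fold over input of each interval (boxes, coloured by fold; white where the library has no peak) in each of the 8 H3K27ac and 8 H3K4me1 libraries, by distance from the Fkbp5 start site into the gene in kb, with the gene body as a black bar; numbers after the genotype are replicates. The start-site box of H3K27ac is brightest in the 2 WT rows, and the brightest box near 40 kb is in the 2 Cpt2 KO rows.

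Cdkn1a had 1 H3K27ac interval, at a start site, and it was lowest in WT. The gene encodes p21, an inhibitor of cyclin-dependent kinases, and lies on chromosome 17 at 29090979 to 29100722. Fold in the interval (29093597 to 29095626) was 11 and 11.8 for WT, 17.3 and 21.8 for Cpt2 KO, 19.8 and 18.6 for Ppara KO, and 17.7 and 41.9 for DKO. Both WT livers lay below the other 6, whose genotypes overlapped, and the 2 DKO livers were far apart. DKO exceeded WT by 0.96 ± 0.29 (SE, limma adjusted p = 0.0348). Without DKO replicate 2 the difference was 0.44 (adjusted p = 0.351) and without DKO replicate 1 it was 1.49 (adjusted p = 0.00917); the call was also lost without either WT liver and when libraries without a peak were filled in.

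Among the strongest H3K27ac intervals of the 8 genes, that of Cdkn1a had the widest range over the libraries, 1.54 on the centred log2 scale, from WT replicate 2 to DKO replicate 2. The genes with the most similar pattern over the 8 libraries, among 11263 compared, were Fank1, Gm50595 and Ly96, with root mean square differences of 0.168, 0.195 and 0.201 in log2 fold. This is a ranking by likeness and carries no test.

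Tat held the 1 member interval of 30 that passed for Ppara-null against Ppara-intact livers, a share below that of all intervals. The gene encodes tyrosine aminotransferase, the first enzyme of tyrosine breakdown and a textbook glucocorticoid target of hepatocytes, and lies on chromosome 8 at 109986078 to 109999804. A single H3K27ac domain of 26634 bases (109969013 to 109995646) ran from upstream of the gene across its start site at 109990436. Its fold was 18.6 and 19.4 for WT, 26.6 and 16.6 for Cpt2 KO, 26.9 and 28.1 for Ppara KO, and 29.7 and 38.7 for DKO. All 4 Ppara-null livers lay above all 4 Ppara-intact livers, though Cpt2 KO replicate 1 came close. Ppara-null livers exceeded Ppara-intact ones by 0.58 ± 0.14 (SE, limma adjusted p = 0.0257), while DKO against WT gave 0.54 ± 0.20 (adjusted p = 0.0725). The Ppara call was lost without WT replicate 2, Cpt2 KO replicate 2, either Ppara KO liver or DKO replicate 2 (adjusted p up to 0.124). Larger Ppara differences that did not pass, also with all Ppara-null livers above all Ppara-intact ones, were 0.80 ± 0.24 (adjusted p = 0.0601) and 0.78 ± 0.24 (adjusted p = 0.0608) at the Zbtb16 intervals that start at 48784004 and 48793475. Inside Tat 2 short intervals, at 109996058 to 109996374 and 109997757 to 109998022, had peaks only in DKO, with folds of 4.88 and 4.97 and of 2.75 and 4.30.

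Sgk1, which encodes a kinase that promotes sodium and glucose transport, did not pass in any comparison at either of its 2 tested intervals, and had small peaks called only in DKO. The gene spans chromosome 10 from 21882184 to 21999903 and has 6 start sites in the promoter table. The 250 bases before the start site at 21993890 (chr10:21993640-21993889, plus strand, RefSeq GRCm38.p6) are shown because they hold the full palindrome of the glucocorticoid response element, searched as AGAACA and TGTTCT with any 3 bases between them. Capitals mark that match and a further half-site read on the other strand.

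Sgk1 promoter: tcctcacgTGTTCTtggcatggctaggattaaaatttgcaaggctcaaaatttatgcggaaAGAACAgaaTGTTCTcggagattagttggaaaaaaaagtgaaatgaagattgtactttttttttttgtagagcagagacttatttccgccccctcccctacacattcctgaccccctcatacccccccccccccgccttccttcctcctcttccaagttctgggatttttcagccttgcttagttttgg

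The palindrome begins 189 bases before the start site. It was found in 3 of 32817 promoter windows (0.00914%), and this was the single one among the windows of the members that the table holds. No member window held the direct repeat bound by Ppara with its partner, searched on both strands as 2 copies of AGGTCA with any 1 base between them, which 0.0335% of windows held; this says only that these letters were not in these windows.

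The palindrome falls inside an interval (21990863 to 21993752) with H3K27ac folds of 8.58 and 10.1 for WT, 14.8 and 13.2 for Cpt2 KO, 12.1 and 11.1 for Ppara KO, and 15.7 and 17.8 for DKO. In uncentred fold the 4 genotypes did not overlap, and WT was lowest and DKO highest. Cpt2 KO (13.2) and Ppara KO (12.1) lay close. The log2 difference of DKO from WT, 0.55, did not pass (limma adjusted p = 0.104). The neighbouring strongest interval (21993845 to 22001869) had folds of 23.9 and 20.2 for WT, 31.1 and 28.1 for Cpt2 KO, 23.1 and 26.1 for Ppara KO, and 31.6 and 38.9 for DKO, and differed by 0.38 ± 0.18 between DKO and WT (SE, limma adjusted p = 0.148). Here WT and Ppara KO overlapped and DKO lay above the other livers.

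Peak calls inside Sgk1 were more frequent in DKO. Of its 8 intervals, 5 and 8 were called in the 2 DKO livers, and 2 or 3 in each of the other 6. Intervals at 21889742 to 21890113 (folds 7.0 and 7.38) and at 21907771 to 21908180 (6.14 and 6.56) were called in both DKO livers and in no other. With the 2 at Tat, 4 of the 94 member intervals were called only in DKO (4.26%, against 2.26% of all H3K27ac intervals). In WT alone 1 was called (1.06%, against 3.29%), at 48832496 to 48832869 inside Zbtb16, and none only in Cpt2 KO (1.83% of all) or only in Ppara KO (0.441%). These calls by single genotypes were an addition made after the data had been seen. The DKO lists also held the most H3K27ac peaks of any genotype, 48929 and 48124.

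At Klf9, as at Sgk1, no H3K27ac interval passed in any comparison, among 4 tested. The gene encodes a zinc-finger repressor induced by glucocorticoids and thyroid hormone, on chromosome 19 at 23141226 to 23168129. The strongest interval (23131472 to 23139217), upstream of the start site, had folds of 24.8 and 20.6 for WT, 24.7 and 24.3 for Cpt2 KO, 27.6 and 20.2 for Ppara KO, and 23.4 and 42.8 for DKO. All 4 genotypes overlapped, and DKO replicate 2 stood apart from the rest. The log2 difference of DKO from WT was 0.19 ± 0.25 (SE, limma adjusted p = 0.63). At the start-site interval (23139338 to 23146967), fold was 23.3 and 28.1 for WT, 24.7 and 20.5 for Cpt2 KO, 16.8 and 21.0 for Ppara KO, and 24.6 and 28.6 for DKO, again with overlap.

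Zbtb16 held the most intervals, 40 of H3K27ac and 60 of H3K4me1, over a body of 184429 bases (chromosome 9, 48651797 to 48836225). It encodes the zinc-finger transcription factor PLZF, which glucocorticoids induce strongly in many tissues. A single interval inside the gene (48784004 to 48790705) passed, with folds of 8.91 and 4.18 for WT, 12.6 and 11 for Cpt2 KO, 12.6 and 15.0 for Ppara KO, and 16.3 and 16.5 for DKO. WT was below and DKO above all other livers. DKO exceeded WT by 1.13 ± 0.34 (SE, limma adjusted p = 0.0323), a call lost without WT replicate 2 (difference 0.48, adjusted p = 0.226) or either DKO liver, while without WT replicate 1 the difference was 1.78.

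The strongest Zbtb16 interval (48726891 to 48745311) had folds of 25.5 and 19.2 for WT, 38.9 and 26.9 for Cpt2 KO, 26.9 and 27.4 for Ppara KO, and 30.8 and 37.9 for DKO. WT was lowest and the knockouts overlapped, and DKO differed from WT by 0.33 ± 0.21 (SE, limma adjusted p = 0.284). Another (48765458 to 48766040) was called only where Ppara was lost, at 5.38 and 4.79 for Ppara KO and at 5.35 and 5.63 for DKO. It was the only such member of the 94 (1.06%, against 0.632% of all intervals). None was called only in Ppara-intact (0.725% of all) or only in Cpt2-intact livers (0.826%). Libraries differed in how many of the 40 Zbtb16 intervals they called, from 13 in Cpt2 KO replicate 2 to 31 in Ppara KO replicate 1.

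**Figure D4:**
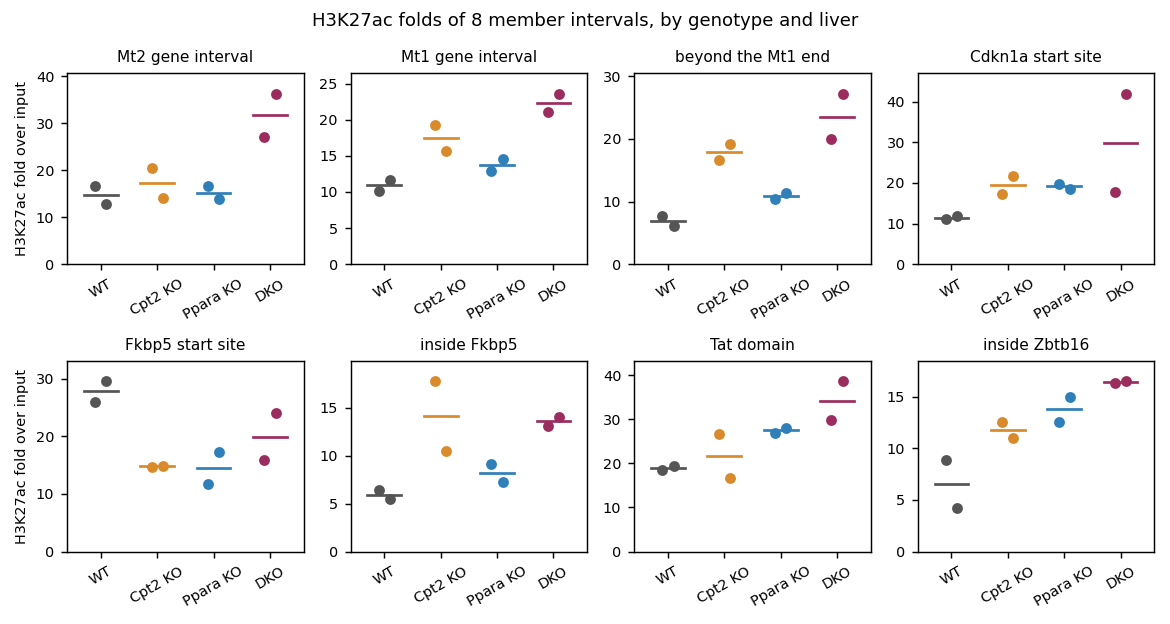
H3K27ac fold over input (axis from 0) in each liver (points) with the mean of the 2 livers (lines) for 8 member intervals, 1 panel each, by genotype. DKO is highest at both metallothionein gene intervals, WT is highest at the Fkbp5 start site, and the 2 DKO points of Cdkn1a lie at 17.7 and 41.9.

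H3K4me1 near the 8 genes gave no call in any comparison. In this mark the smallest peak width, given above, set DKO apart from WT and split the replicates of both single knockouts. Of the 136 intervals, 52 were called in all 8 libraries, and 0 of the 52 passed (limma, adjusted p under 0.05) in each of the 6 comparisons. At an unadjusted p under 0.05, 14 of the 52 differed in DKO against WT (26.9%, where 19.4% of all did), 10 in Ppara-null against Ppara-intact (19.2%, where 13.9% did) and 5 in Cpt2-null against Cpt2-intact (9.62%, where 9.81% did). For Ppara KO against WT there were 7 (13.5%, where 8.44% of all did), for Cpt2 KO against WT 1 (1.92%, where 7.69% did) and for the interaction 1 (1.92%, where 2.90% did). Few intervals passed anywhere in this mark: 0.133% of all 19526 in DKO against WT (0.0973% higher, 0.0358% lower), 0.128% in Ppara-null against Ppara-intact (0.0461% higher, 0.0819% lower) and none in the other 4. The median log2 difference of the 52 in Ppara-null livers was 0.16 against -0.01 over all, and 39 of the 52 (75.0%) were positive where 48.8% of all were. Of the 52, 24 lay at Zbtb16 and 12 at Fkbp5, so these values mostly describe those genes. Without Cpt2 KO replicate 1, 5 passed in DKO against WT (9.62%, where 5.08% of all then passed) and 3 in Ppara-null against Ppara-intact (5.77%, where 5.2% did). Without Cpt2 KO replicate 2, 4 passed in DKO against WT (7.69%, where 5.12% of all did).

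At the strongest H3K4me1 intervals DKO and WT did not differ past the threshold. The interval over Mt2 (94170581 to 94173653) had folds of 6.71 and 6.88 for WT, 10.4 and 7.17 for Cpt2 KO, 9.00 and 8.26 for Ppara KO, and 7.77 and 9.91 for DKO. WT was lowest and the knockouts overlapped. The strongest Tat interval (109979608 to 109985472), upstream of the gene, had folds of 10.1 and 11.4 for WT, 10.5 and 9.64 for Cpt2 KO, 11.4 and 12.9 for Ppara KO, and 13.9 and 15.4 for DKO. The log2 differences of DKO from WT were 0.37 at Mt2, 0.45 at Tat, -0.27 at Fkbp5, -0.02 at Sgk1, 0.07 at Klf9 and 0.02 at Zbtb16, with limma adjusted p of 0.312 or more for each. Cdkn1a had no H3K4me1 interval called in all 8 libraries; the most widely called one (29093264 to 29093890) had peaks in 5.

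Of the H3K4me1 intervals 3, chosen after their values were seen, came closest to the threshold in DKO against WT. Before Mt1 (94178013 to 94178906), fold was 6.00 and 4.50 for WT, 3.98 and 6.06 for Cpt2 KO, 8.67 and 6.15 for Ppara KO, and 10.1 and 14.2 for DKO, and DKO exceeded WT by 1.20 on the log2 scale (limma adjusted p = 0.0876). Upstream of Tat (109977933 to 109979563), fold was 5.0 and 5.38 for WT, 8.12 and 4.41 for Cpt2 KO, 8.39 and 9.62 for Ppara KO, and 10.5 and 11.2 for DKO, and DKO exceeded WT by 1.07 (adjusted p = 0.0976). Inside Zbtb16 (48824306 to 48827207), fold was 6.24 and 5.67 for WT, 9.04 and 13.9 for Cpt2 KO, 8.46 and 10.7 for Ppara KO, and 13.5 and 12.6 for DKO, and DKO exceeded WT by 1.14 (adjusted p = 0.0852). In all 3 the DKO livers lay above the WT livers, and at Tat the 4 Ppara-null livers lay above the 4 Ppara-intact ones. Called only in WT were 2 of the 136 H3K4me1 intervals (1.47%, against 1.85% of all), 1 at Cdkn1a and 1 inside Zbtb16. None was called only in Cpt2 KO (0.621% of all), Ppara KO (0.153%) or DKO (1.22%), and none only in Ppara-null (0.385%), Ppara-intact (0.604%), Cpt2-null (0.141%) or Cpt2-intact livers (0.143%).

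Fewer consensus intervals of H3K9ac near these genes were called in the Cpt2 KO liver than in the WT liver, with 1 library each and so no replicate check and no test. Of the 167 member intervals, 106 (63.5%) were called in both livers, 55 (32.9%) only in WT and 6 (3.59%) only in Cpt2 KO. Over all 46568 H3K9ac intervals the shares were 55.2%, 20.8% and 23.9%. Of the 167 member intervals, 85 lay at Zbtb16 and 41 at Fkbp5, so the member shares mostly describe those genes. The 2 libraries as a whole covered 37461 kb in WT and 37369 kb in Cpt2 KO.

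By covered length Tat showed the widest gap in proportion, with 16.5 kb in WT and 5.34 kb in Cpt2 KO. Its consensus intervals called were 11 and 4, and the libraries' own intervals, several of which can fall in 1 consensus interval, were 11 and 7. Zbtb16 had 86.1 kb in WT and 65.0 kb in Cpt2 KO, with 83 and 55 consensus intervals and 88 and 68 of the libraries' own. At Fkbp5 the 2 counts differed: 42.4 kb in WT and 28.6 kb in Cpt2 KO came with 39 and 29 consensus intervals but with 41 and 38 own intervals. Klf9 went opposite ways by the 2 counts, with 23.0 kb in WT and 19.6 kb in Cpt2 KO, 11 and 8 consensus intervals, and 11 and 15 own intervals. Mt1 had 12 and 10 consensus intervals (13 and 10 own) and Mt2 10 and 7 by both counts. Sgk1 had 3 and 4 (5 and 6 own), and Cdkn1a 1 and 2 (2 and 2 own). In covered length Cdkn1a went the other way, with 2.32 kb in WT and 4.27 kb in Cpt2 KO. In the same order Mt1 had 11.4 and 10.3 kb, Mt2 10.1 and 8.52 kb, and Sgk1 8.11 and 7.90 kb. Of the 55 intervals called only in WT, 33 overlapped an H3K27ac interval, and 21 of these lay on H3K27ac called in both WT and both Cpt2 KO livers. None lay on H3K27ac called in both WT livers and in neither Cpt2 KO liver. Intervals called only in WT were short, with a median of 312 bases, against 843 for those called in both.

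**Figure D5:**
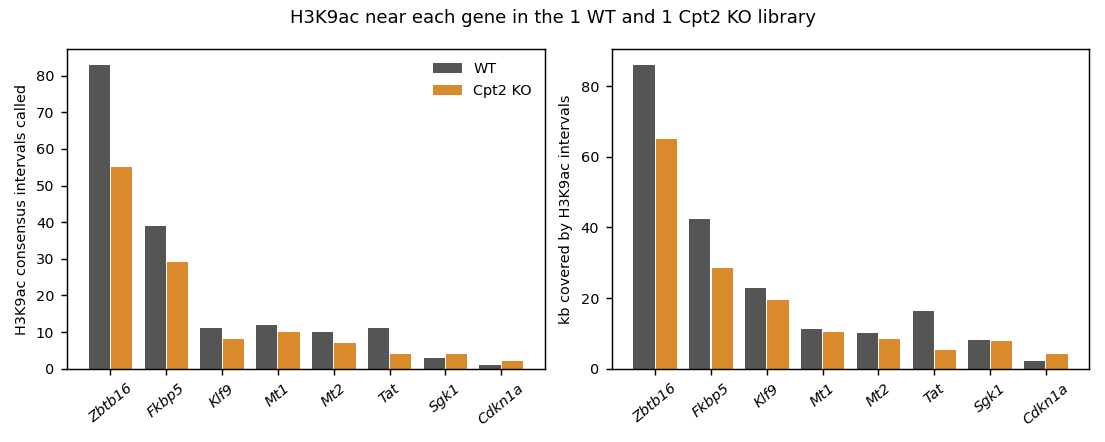
Number of H3K9ac consensus intervals called near each gene (left) and kb covered inside the gene's window (right) in the 1 WT and 1 Cpt2 KO library; bars start at 0 and have no error since each is a single library. The WT bar is the taller at 6 of the 8 genes by number, and the 2 libraries differ most in proportion at Tat; counts of the libraries' own intervals, given above, differ from these.

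Other genes of the pathway were read at their strongest H3K27ac interval. The shares given beside them are over all tested intervals, strong and weak, and so are not from a like set. Of 10 genes for the receptor, its chaperones and the supply of hormone, 9 were tested. In DKO against WT, 4 of the 9 were lower and none higher (11.5% of all tested intervals were lower), with a median log2 difference of -0.56. These were Nr3c1, the receptor itself (-0.56 ± 0.19 SE, limma adjusted p = 0.048), Hsp90ab1, an Hsp90 chaperone (-0.86 ± 0.19, 0.00854), Ncoa2, a coactivator of the receptor (-0.69 ± 0.18, 0.020), and Akr1d1, an enzyme that inactivates steroids (-0.92 ± 0.24, 0.0193). The Nr3c1 call was lost in 7 of the 8 fits with a library left out, with a difference of -0.32 without WT replicate 2, and also with quantile normalization, the replicate block, a stricter peak threshold or filling in. All 4 calls were lost without centring, and that of Ncoa2 also with quantile normalization. With peak width as a covariate, 3 calls held among all those of the pathway lists named here: Hsp90aa1, Hsp90ab1 and Sds in Ppara-null against Ppara-intact. The Akr1d1 call was also lost without WT replicate 2 or DKO replicate 1, that of Hsp90ab1 without DKO replicate 1, and that of Ncoa2 without WT replicate 2 or either DKO liver.

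Loss of Ppara went with less H3K27ac at both Hsp90 genes. Hsp90ab1 had folds of 25.7 and 30.3 for WT, 24.2 and 21.0 for Cpt2 KO, 12.3 and 14.5 for Ppara KO, and 16.3 and 22.0 for DKO. Hsp90aa1 had 27.7 and 24.4 for WT, 40.8 and 30.9 for Cpt2 KO, 13.9 and 16.3 for Ppara KO, and 22.6 and 28.8 for DKO. Ppara KO was lowest at both, and DKO overlapped the Ppara-intact livers. Ppara-null livers fell by 0.69 ± 0.13 on the log2 scale at Hsp90ab1 (SE, limma adjusted p = 0.00863) and by 0.66 ± 0.13 at Hsp90aa1 (adjusted p = 0.0108), and both calls held with each library left out in turn. These were 2 of the 9 (4.15% of all tested intervals were lower in Ppara-null). With Cpt2 lost, 2 of the 9 were lower (7.38% of all): Akr1d1 by -0.83 ± 0.17 (adjusted p = 0.0116) and Ptges3, another co-chaperone, by -0.73 ± 0.17 (adjusted p = 0.019). The Ptges3 call was lost without WT replicate 2, Cpt2 KO replicate 1, Ppara KO replicate 1 or DKO replicate 1, and neither held without centring. Against WT, Ppara KO was lower at 3 of the 9 (Hsp90ab1 -1.05, Hsp90aa1 -0.78, Ncoa2 -0.72; 3.59% of all tested intervals were lower) and Cpt2 KO at 2 (Ptges3 -1.08, Ncoa2 -0.68; 7.69% of all). Each of these calls was lost without WT replicate 2 and without either knockout liver of the pair, and those of Hsp90aa1 and Ncoa2 also without centring and with quantile normalization.

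Of 14 other genes induced by glucocorticoids, 13 were tested. Of these 3 were higher in Ppara-null livers and none lower (3.19% of all tested intervals were higher), with a median difference of 0.20. These were Sds, serine dehydratase (0.80 ± 0.17 SE, limma adjusted p = 0.0139), Igfbp1, a binding protein of insulin-like growth factors (0.66 ± 0.19, 0.0469), and Tdo2, which opens the tryptophan ring (0.61 ± 0.17, 0.047). Sds had folds of 16.1 and 14.5 for WT, 14.3 and 12.5 for Cpt2 KO, 19.0 and 22.6 for Ppara KO, and 37.4 and 26.0 for DKO. All 4 Ppara-null livers lay above the 4 Ppara-intact ones at Sds, as they did at Tat. The Sds call was lost without Cpt2 KO replicate 2, Ppara KO replicate 2 or DKO replicate 1 (adjusted p up to 0.0581). Igfbp1 and Tdo2 were each lost in 6 of the 8 fits with a library left out and without centring. In DKO against WT, 2 of the 13 were higher (8.62% of all): Sds by 0.73 (adjusted p = 0.0462; 0.37 without DKO replicate 1, and lost in 6 of the 8 fits with a library left out) and Errfi1, an inhibitor of the EGF receptor, by 0.67 (adjusted p = 0.030), a call lost without either WT or either DKO liver. In Cpt2 KO against WT, 1 of the 13 was lower, near the share of all tested intervals (7.69% lower). This was Cebpb, a transcription factor (-1.06 ± 0.26 SE, limma adjusted p = 0.0194), a call lost without WT replicate 2, without either Cpt2 KO liver and without centring.

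Of 4 zinc-handling genes beside the metallothioneins, 3 were tested, and 1 of the 3 passed (7.38% of all tested intervals were lower in Cpt2-null livers, and 7.69% in Cpt2 KO against WT). Slc39a14, a zinc importer of hepatocytes, was lower in Cpt2-null livers (-0.45 ± 0.12 SE, limma adjusted p = 0.0322) and in Cpt2 KO against WT (-0.94 ± 0.18, adjusted p = 0.00719). The first call was lost in 6 of the 8 fits with a library left out, without centring and with quantile normalization, and the second without Cpt2 KO replicate 1 (adjusted p = 0.0886). In H3K4me1, 0 genes of these 3 lists passed in any of the 6 comparisons.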

How the data were processed

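Chromatin immunoprecipitation with sequencing was done on fasted mouse liver. BWA, MACS2 2.1.0 and mm10 are named in the submitters' processing notes, and filters, scaling and the caller's threshold are not given in the sources used here. The authors deposited 1 peak list per H3K27ac and H3K4me1 library, so replicates were not pooled; each peak has a fold over the pooled input (a ratio) and −log10 p and −log10 q values, as deposited. The H3K9ac tables and the consensus intervals hold positions only. In 1 H3K27ac list, Ppara KO replicate 2, the build in the peak names is spelled differently; the list shared bases with that of replicate 1 (Jaccard 0.723) like the replicates of other genotypes and was used as mm10. The 2 pooled inputs were not analysed on their own.

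A peak counted for an interval with at least 1 base of overlap. Folds were put on the log2 scale, each library was centred on its median over intervals called in all 8 libraries of the mark, and limma 3.58.1 (lmFit, then eBayes with trend, under R 4.3.3) tested the differences in 1 fit of 4 genotype means with 4 residual degrees of freedom. P-values were Benjamini-Hochberg adjusted over all intervals tested, with 0.05 as the threshold. A fold is the height of 1 peak and says nothing of the rest of a broad domain. The fit was tested on simulated data. Named intervals were the strongest of each gene (highest mean log2 fold among those called in all 8 libraries), every other one past the threshold, and those called in all libraries of one state and none of the other. The 8 genes and all lists were chosen with earlier results of these data known. Other gene lists were read at the strongest interval of each gene. Zbtb16 has no entry in the promoter table, and the windows of Mt1 and Tat are not printed. Replicate numbers did not pair the samples: the correlation of deviations of same-numbered libraries ran from -0.065 to 0.17 in H3K27ac and from -0.49 to 0.10 in H3K4me1. The -0.49 was between Cpt2 KO and Ppara KO, whose opposite-numbered H3K4me1 libraries thus deviated alike in part. Alternatives were other scalings, a minimum −log10 q of 10, an overlap of 50%, filling in, a replicate block, peak width as a covariate, a window of 2000 bases and leaving out each library.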

Additional observations from a re-analysis of the deposited data

Results flagged for a closer look

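Within the 4 livers of each Ppara or Cpt2 state, the highest or lowest fold of the strongest interval of each gene was compared with the others, in 52 sets of 4 livers. In 4 of them 1 liver was set apart by most of the range of the set, and chance alone marks about 1 in 20 sets. At the strongest Klf9 H3K27ac interval, WT replicate 2 was low among the Ppara-intact livers, with a fold of 20.6, and DKO replicate 2 was high among the Cpt2-null livers, with 42.8. DKO replicate 2 was also high among the Ppara-null livers at Cdkn1a, with 41.9. At the H3K4me1 interval over Mt2, Cpt2 KO replicate 1 was high among the Ppara-intact livers, with 10.4.

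The H3K27ac interval 7199 bases before the Mt2 gene body was picked out because the 2 Cpt2 comparisons went opposite ways. Where Ppara was present, WT had a peak and Cpt2 KO had none, and where Ppara was absent the mean fold of the DKO livers exceeded that of the Ppara KO livers by 6.55. Libraries without a peak have no value there, so this difference was not tested.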

How the results depend on the processing

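Counts of H3K27ac member intervals past the threshold are given in the order Ppara-null against Ppara-intact, Cpt2-null against Cpt2-intact, Cpt2 KO, Ppara KO and DKO against WT, which were 1, 2, 3, 1 and 8. Without centring they were 3, 10, 5, 2 and 11. Of all intervals 6.01%, 21.5%, 13.9% and 4.54% then passed in the first 4 comparisons, and the share for DKO against WT is not given here. With uncalled libraries filled in they were 3, 9, 8, 3 and 14 of 52 rather than 30 members. These were 5.77%, 17.3%, 15.4%, 5.77% and 26.9%, where 12.3%, 21.4%, 20.3%, 11.5% and 31.0% of all passed. With peak width as a covariate they were 0 in all 5, where 3.9%, 0%, 0%, 0.093% and 0% of all passed. With a replicate block they were 3, 3, 3, 2 and 8. For Ppara-null and for Ppara KO these were 10% and 6.67% of the members, where 8.15% and 7.45% of all passed. The shares of all in the other comparisons of that fit are not given here. A window of 2000 bases gave 0 of 25 for Ppara-null and 1 of 25 (4%) for Cpt2-null, where 7.34% and 12.3% of all passed. Leaving out 1 library gave 0 to 3, 1 to 4, 0 to 5, 0 to 3 and 1 to 8, and for H3K4me1 0 to 3 in Ppara-null against Ppara-intact and 0 to 5 in DKO against WT. Of the 8 DKO calls, 7 were shared with quantile normalization, all but the Fkbp5 start site. The cause of these shifts was not tested.

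In DKO against WT, the log2 difference changed sign with peak width as a covariate at H3K27ac of Sgk1 (-0.24), Klf9 (-0.49) and Zbtb16 (-0.44 at the strongest interval and -0.29 at 48784004), and at H3K4me1 of Sgk1 (0.14) and Zbtb16 (-0.28). It also changed sign at Klf9 without WT replicate 2 (-0.05) or DKO replicate 2 (-0.15), against up to 0.53 without another library, at H3K4me1 of Sgk1 without WT replicate 1 (0.11) or DKO replicate 1 (0.07), and at H3K4me1 of Zbtb16 without WT replicate 1 (-0.04) or DKO replicate 2 (-0.23), against up to 0.26 without another. Of the differences past the threshold, 1 changed sign, that at Zbtb16 48784004. Read depth is unknown, so an interval with no peak cannot be told apart from a low one.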

Other observations

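Of the pathway genes 2, chosen after their values were seen, had H3K27ac that WT and knockout livers did not share. At the strongest interval of Ddit4, a stress-induced inhibitor of growth signalling that glucocorticoids induce, neither WT liver had a peak, while fold was 11.3 and 3.84 for Cpt2 KO, 12.8 and 13.4 for Ppara KO, and 15.9 and 23.6 for DKO. At Serpina6, which encodes the corticosteroid-binding globulin of the blood, fold was 14.9 and 18.4 for WT, 5.36 in the single Cpt2 KO liver with a peak, 5.49 and 8.2 for Ppara KO, and 4.61 and 6.14 for DKO. WT was thus lowest at Ddit4 and highest at Serpina6, and neither interval was called in all 8 libraries, so neither was tested.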
